A study of Mus musculus with 6 samples.

Results

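Cultures of mouse spermatogonial stem cells (SSCs) that had lost glial cell line-derived neurotrophic factor (GDNF) for 18 h and then received it again for 8 h (8h) were compared with cultures that were never deprived of it (N), to measure how far long non-coding RNAs (lncRNAs) had come back to their starting level. The comparison used 4 of the 6 libraries, 2 of each condition, with replicate 1 and replicate 2 taken as the 2 independently established SSC lines, so that each 8h library was set against the N library of the same line. An lncRNA entered if it had at least 10 counts in at least 2 of these 4 libraries, which 35141 of the 73710 lncRNAs listed anywhere in the series did. Of these, 14304 were known, with NONCODE identifiers that start with n, and 20837 were predicted, with the Cufflinks transcript numbers TCONS. The remaining 2 libraries, taken after 18 h without GDNF and no re-addition (0h), were used to estimate the spread between libraries and to give the level from which recovery started.

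All cultures were Thy1-positive germ cells of C57BL/6 pups aged 6 to 8 days, at passage 10 to 20, kept on inactivated STO feeder cells (a mouse fibroblast line) in serum-free medium. The N medium held GDNF at 20 ng/ml, soluble GFRA1 at 150 ng/ml and FGF2 at 1 ng/ml. Cells of several pups were pooled to start a culture, and such cultures hold true stem cells among other undifferentiated spermatogonia. The files analysed here list lncRNAs only, so neither germ cell markers nor feeder cell markers could be read from them, and the part of feeder RNA in any result was not tested.

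GDNF is secreted by the somatic cells of the testis and binds GFRA1 on the stem cell, which then activates the receptor tyrosine kinase RET. This signal keeps SSCs dividing without differentiating, and cultures without it lose their stem cells. LncRNAs are transcripts without a protein product, some of which act on the chromatin of nearby genes, and most of those measured here have no described role. In bulk RNA a lower level per cell and fewer cells that carry the transcript cannot be told apart.

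The tested lncRNAs held between 7551958 and 8098990 reads in the 4 libraries, which was 98.3% to 98.5% of all counted reads, and 3 counts corresponded to a share of 3.65e-07 to 3.90e-07 of all reads of a library. Intervals and limits of this kind cover counting error only. More lncRNAs had at least 1 read in the 8h libraries (62036 and 61107) than in the N libraries (58925 and 60369), and the groups did not overlap. The difference was 3111 in line 1 and 738 in line 2. An exact permutation test of 2 libraries against 2 cannot give a p below 0.33, so these values per library are given without a call. Predicted lncRNAs took 30.6% and 30.0% of the counts in 8h and 29.6% and 30.1% in N, values that overlapped (two-sided exact permutation p = 0.667).

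After GDNF was restored, 868 of the 35141 lncRNAs passed the test for a difference from never-deprived cultures, and 55.6% of all tested lay within 0.5 of N on the log2 scale. In edgeR's quasi-likelihood test with the replicate number as a block, lncRNAs were called that differed by 2-fold or more with a false discovery rate (FDR, Benjamini-Hochberg) under 0.05. By this rule 380 were higher in 8h than in N and 488 were lower, which is 1.08% and 1.39% of those tested. The median log2 fold change over all tested lncRNAs was 0.00, and the middle 50% of them lay between -0.41 and 0.46. Among the lncRNAs called higher the median log2 fold change was 1.56, and 106 of the 380 were at least 4-fold higher. Those called lower had a median of -1.65, with 148 of the 488 at least 4-fold lower.

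**Figure D1:**
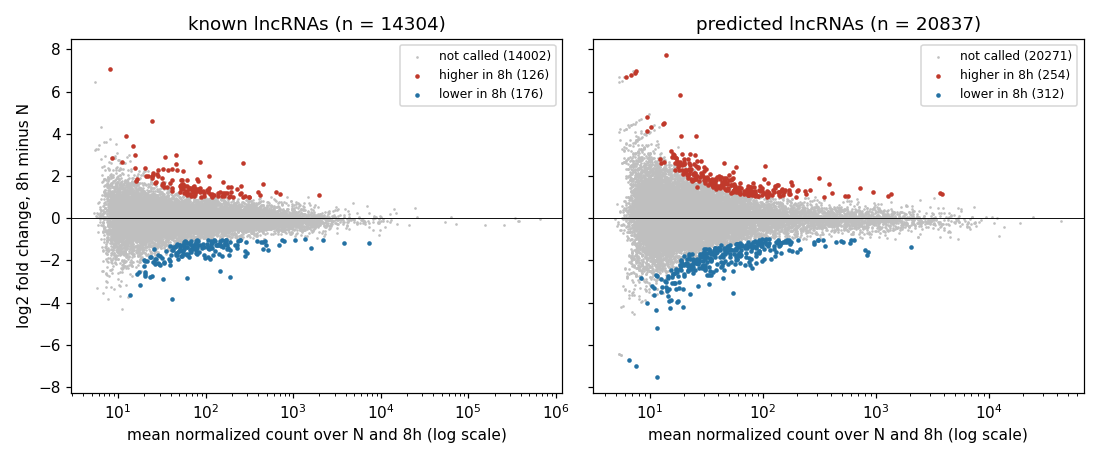
Log2 fold change of 8h against N (vertical axis) by mean normalized count over the 4 N and 8h libraries (horizontal axis, log scale) for known (left) and predicted (right) lncRNAs, 1 point per lncRNA. Points called at an FDR below 0.05 and at least a 2-fold difference are red when higher in 8h (126 known, 254 predicted) and blue when lower (176 known, 312 predicted), and grey points, which narrow toward 0 with rising abundance, were not called.

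These numbers depend on the test and on whether it compares each line with itself. In the quasi-likelihood test without the replicate block the same 6 libraries gave 23 lncRNAs called higher and 59 called lower, all 82 among the 868. The exact test of edgeR on the 4 N and 8h libraries, also without the block, called 327 higher and 400 lower. Of these, 627 were among the 868. With total counts in place of TMM (edgeR's trimmed mean of M-values) scaling, 540 were called higher and 432 lower, so that 55.6% of calls were higher, against 43.8% with TMM. For withdrawal and for re-addition the study used an unadjusted P below 0.05 with at least a 2-fold difference, and it also gave a stricter set at an FDR below 0.05. It did not report 8h against N. With its unadjusted rule applied to that comparison and to the P of edgeR, 1791 were higher (5.10% of those tested) and 1738 lower (4.95%). That P carries no correction for the number of lncRNAs tested.

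Single libraries also moved the counts. Without N replicate 2 the test called 117 lncRNAs higher and 159 lower, without N replicate 1 it called 164 and 258, and without 8h replicate 1 it called 250 and 388. The replicate block takes out a constant difference between the 2 lines. P-values of the main fit therefore rest on how the differences between conditions, 0h included, vary from line to line. Each lncRNA has only 2 residual degrees of freedom for this. The quasi-likelihood test adds to them by borrowing spread from the other lncRNAs, so a P is not a measure of that lncRNA's own spread alone.

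The 2 lines gave differences of the same kind although they share no library. For lncRNAs with a mean of at least 50 normalized counts over the 4 libraries (n = 11258), the 8h minus N difference in line 1 and that in line 2 correlated across lncRNAs with a Pearson r of 0.58 and a Spearman rho of 0.52, and 68.1% had the same sign. The r was 0.71 for the 1084 lncRNAs with a mean of at least 1000 and 0.33 for all tested lncRNAs, of which many have few reads. LncRNAs are not independent replicates, and both lines share the scaling, so these values are given without a p.

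To measure one line with values it did not help to choose, lncRNAs were selected in 1 line on a difference of at least 1 on the log2 scale (normalized count + 0.5) and a mean of at least 50 normalized counts in that line. Of 363 lncRNAs that were higher in 8h in line 1, 91.2% were also higher in line 2, where their median difference was 0.80, against 1.23 in line 1. Of 417 that were lower in line 1, 90.2% were lower in line 2, with a median of -0.83. In the opposite direction, 88.2% of 373 and 91.8% of 428 lncRNAs selected in line 2 kept their sign in line 1, with medians of 0.82 and -0.86.

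**Figure D2:**
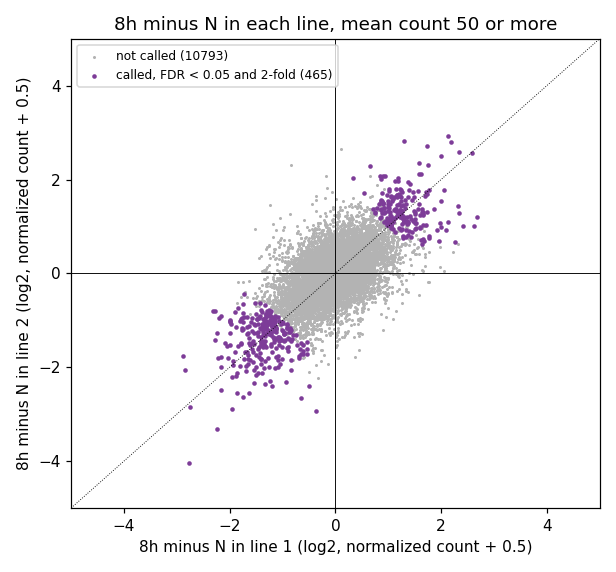
The 8h minus N difference in line 1 (horizontal axis) and line 2 (vertical axis), both as log2 of normalized count + 0.5, for lncRNAs with a mean of at least 50 normalized counts, 1 point each. The 465 called lncRNAs (purple) lie in the lower left and upper right, which the call favours without requiring it. The 10793 others (grey) are also drawn out along the dotted line of equal differences.

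Over all tested lncRNAs the difference between conditions within a line was only slightly larger than the difference between the lines within a condition. The median absolute log2 difference between 8h and N was 0.53 in line 1 and 0.52 in line 2. Between the lines it was 0.46 in N and 0.45 in 8h. At a mean of 1000 normalized counts or more the medians were 0.23 and 0.20 within the lines, and between them 0.15 in N and 0.22 in 8h.

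Called lncRNAs were found in both classes. Of 14304 known lncRNAs, 126 were called higher and 176 lower, which is 2.11% together, and of 20837 predicted lncRNAs 254 were higher and 312 lower, or 2.72%. The median log2 fold change over all known lncRNAs was -0.04 and over all predicted lncRNAs 0.04. Known lncRNAs stayed closer to N, with 65.3% of them and 49.0% of the predicted differing by less than 0.5, but they also had more reads, with a median of 47.8 normalized counts against 19.0.

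Within each of the 4 abundance classes below 1000 normalized counts a larger share of predicted than of known lncRNAs was called. The shares were 0.84% and 0.38% below 20 counts, 3.94% and 2.18% from 20 to 50, 8.17% and 4.45% from 50 to 200, and 2.62% and 1.39% from 200 to 1000. At 1000 counts and above 1.07% of the predicted and 1.13% of the known were called. Whether lncRNAs of the 2 classes differ in how often they lie apart from N at 8h was not tested, since lncRNAs of 1 library are not independent. A call does not mean that the lncRNA had changed at 0h.

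The share called was highest at intermediate abundance. It was 0.71% below 20 normalized counts, 3.29% from 20 to 50, 5.96% from 50 to 200, 1.77% from 200 to 1000 and 1.11% at 1000 or more. The median absolute log2 fold change fell over the same classes from 0.62 to 0.46, 0.32, 0.22 and 0.20, and 89.4% of the most abundant class differed from N by less than 0.5. The median absolute difference between the 2 N libraries fell with it, from 0.77 to 0.48, 0.32, 0.20 and 0.15. Below 20 counts the difference of 8h from N (0.80 in each line) was close to that between the N libraries, and at 1000 or more it was above it (0.23 and 0.20 against 0.15). Between the 8h libraries the median was 0.67 below 20 counts and 0.22 at 1000 or more, the last above the 0.20 of line 2. The median log2 fold change of called lncRNAs below 20 counts was 2.86 for higher and -3.04 for lower. The median signed log2 fold change went from 0.08 below 20 counts to -0.11 at 1000 or more.

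The share called differed by length, and not in the same way in each class. It was 1.28% below 500 bp, 1.61% from 500 to 1000 bp, 2.38% from 1000 to 2000 bp, 3.26% from 2000 to 5000 bp and 2.94% at 5000 bp or more, where 12 of 715 were higher and 9 were lower. Length and abundance go together in these data, with median normalized counts of 16.1 from 500 to 1000 bp and 356 at 5000 bp or more. Among lncRNAs with 50 to 200 normalized counts the share still went from 2.45% of 326 below 500 bp to 6.44% of 3123 from 2000 to 5000 bp and 9.23% of 130 at 5000 bp or more. Below 20 counts it stayed between 0.55% and 0.77% over the 4 length classes under 5000 bp, and 0 of 67 longer lncRNAs were called. From 200 to 1000 counts the share was highest at 5000 bp or more, with 6 of 261 called, and lowest from 1000 to 2000 bp, with 14 of 1013. At 1000 counts or more, 2 of 42 were called below 500 bp (4.76%) and 1 of 182 at 5000 bp or more (0.55%). The length classes between these had 1 of 64, 1 of 215 and 7 of 581 called, without a steady order. These calls are too few to show a direction with length. Of known lncRNAs of at least 5000 bp 1.02% were called (2 of 196), the lowest share of the known length classes. Known lncRNAs called lower had a median length of 2508.5 bp, those called higher 1970 bp, and all tested known lncRNAs 2088 bp. For predicted lncRNAs these medians were 1704, 1746.5 and 1293 bp.

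**Figure D3:**
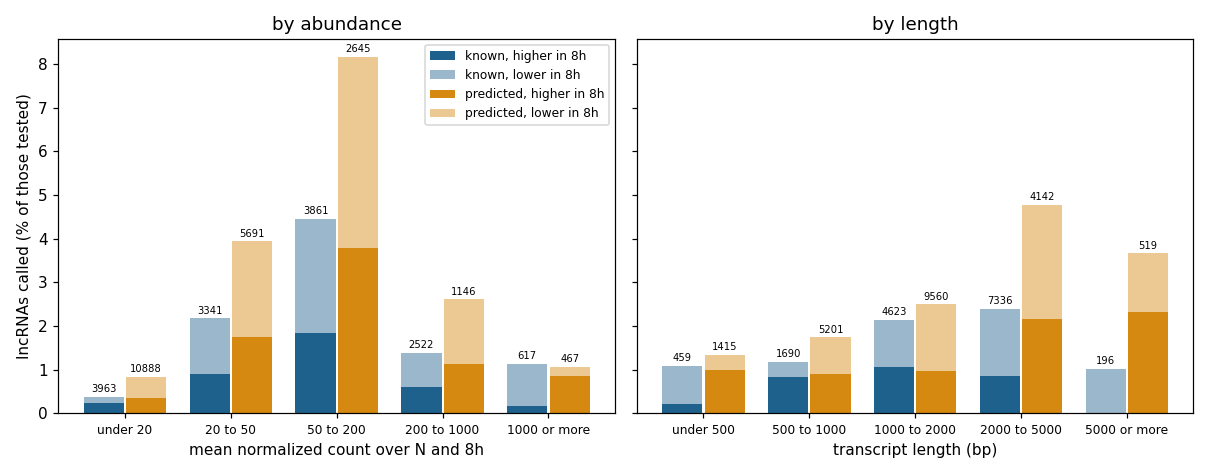
Percent of tested lncRNAs called at an FDR below 0.05 and at least a 2-fold difference, by mean normalized count (left) and transcript length (right), for known (blue) and predicted (orange) lncRNAs, with the dark part of each bar higher and the light part lower in 8h and the number tested above it. The tallest bar is that of predicted lncRNAs with 50 to 200 normalized counts, at 8.17% of 2645.

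The 0h level shows where recovery started. The comparisons of 8h and of 0h with N share the N libraries, so a low N value raises both, and their values are set side by side without a correlation. Over the 380 lncRNAs called higher in 8h the median log2 fold change of 0h against N was 0.64, and of 8h against 0h it was 0.98. Over the 488 called lower these medians were -0.41 and -1.26.

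Selection in 1 line and measurement in the other avoids the shared library for the choice of lncRNAs. Of lncRNAs that were higher in 0h than in N by at least 1 on the log2 scale in line 1 (n = 413), the median in line 2 was 0.75 at 0h and 0.21 at 8h, both against N. For those lower in 0h in line 1 (n = 251) it was -1.03 at 0h and -0.19 at 8h. Selected in line 2 and measured in line 1, the medians went from 0.86 to 0.32 (n = 350) and from -0.76 to -0.43 (n = 352). In all 4 cases the 8h median lay between 0 and the 0h median. In the measured line, 13.1% to 21.0% of these lncRNAs were at least 2-fold from N in the same direction at 8h. They were not required to be so at 0h in that line, and the same share over all lncRNAs was not counted.

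The same was done for lncRNAs far from N at 8h. Selected on the 8h difference in line 1, the 363 higher lncRNAs had a median of 0.19 at 0h in line 2 and of 0.80 at 8h, and the 417 lower ones had -0.28 at 0h and -0.83 at 8h. Selected in line 2, the medians in line 1 were 0.06 and 0.82 for the higher and -0.14 and -0.86 for the lower. Each set was chosen on 1 of the 2 differences, which favours that one in the other line too, so which median is larger is a description and no result.

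**Figure D4:**
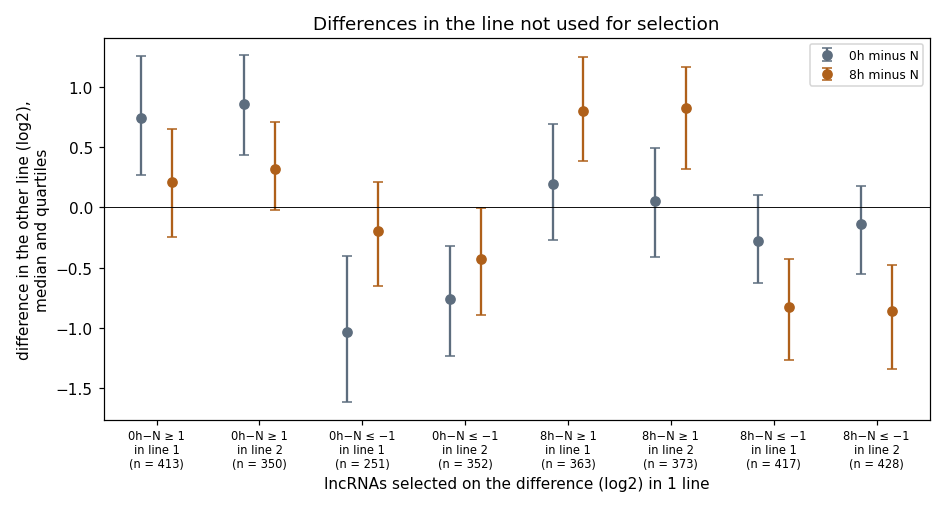
Median and quartiles of the 0h minus N (grey) and 8h minus N (brown) difference on the log2 scale in the line that was not used to select the lncRNAs. The 4 sets on the left were selected on 0h minus N in 1 line, and their 8h median lies nearer to 0 than their 0h median, whereas the 4 sets on the right were selected on 8h minus N, and their 0h median lies nearer to 0.

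Among the abundant lncRNAs called higher, TCONS_00116688 (3352 bp) had the most reads. It had 2172 and 2662 normalized counts in N (line 1 and line 2, here and below), 2498 and 2721 in 0h, and 5482 and 5086 in 8h. Both 8h libraries lay above the other 4, with a log2 fold change of 1.14 against N (standard error 0.12, FDR 1.6e-05), while 0h differed from N by 0.11 (FDR 0.73). Without N or 8h replicate 1 it was just under 2-fold (0.992 and 0.975).

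The short predicted lncRNA TCONS_00053483 (269 bp) had 2025 and 2327 in N, 2658 and 3526 in 0h and then 3797 and 6593 in 8h. Its level climbed from N to 0h to 8h in both lines, and its log2 fold change of 8h against N was 1.21 (standard error 0.13, FDR 2.0e-05, or 0.053 without the replicate block), and 0.969 without 8h replicate 2. Scaled to length, its mean was 998 RPKM in N and 2495 RPKM in 8h, far above TCONS_00116688 with 88.9 and 205 RPKM. TCONS_00036439 (7377 bp) went the same way, with 835 and 830 in N and 1223 and 1115 in 0h, against 2012 and 1733 in 8h, a difference of 1.17 on the log2 scale (standard error 0.13, FDR 2.5e-05).

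Known lncRNAs called higher with the smallest P were n295189, n289705 and n264600. n295189 (2326 bp) had 72.3 and 80.1 normalized counts in N, 61.9 and 126 in 0h and then 437 and 477 in 8h, with a difference of 2.59 on the log2 scale (standard error 0.23, FDR 3.8e-06). Reads covered a mean of 74.2% of its length in N and 98.9% in 8h. n289705 (3208 bp) had 227 and 207 in N and 214 and 185 in 0h, against 835 and 539 in 8h, a difference of 1.64 on the log2 scale (standard error 0.17). n264600 (2159 bp) had 435 and 317 in N, 411 and 310 in 0h and then 998 and 773 in 8h, with a difference of 1.24 on the log2 scale (standard error 0.14, FDR 5.6e-05, or 0.053 without the replicate block). In none of these 3 did 0h differ from N at an FDR below 0.05 (0.68, 0.82 and 0.91).

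The 6 lncRNAs with the largest increases among those with a mean of at least 50 normalized counts included n295189 and 5 less abundant ones. n286553 (3804 bp) had 13.4 and 31.6 normalized counts in N and 60.4 and 243 in 8h, a difference of 2.65 on the log2 scale (standard error 0.33, FDR 0.00012, or 0.13 without the block). Its reads covered only 8.96% to 23.3% of the transcript in the 4 libraries, so they came from a part of it. The libraries of line 2 were above those of line 1 in each condition, and the 8h and N groups did not overlap. TCONS_00063767 (3531 bp) had 24.8 and 37.6 in N and 56.6 and 120 in 0h, against 128 and 227 in 8h, with log2 fold changes of 2.49 against N (standard error 0.27, FDR 3.2e-05) and, for 0h against N, 1.46 (FDR 0.0044).

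TCONS_00024331 (5687 bp), n282957 (1943 bp) and TCONS_00024123 (1688 bp) completed the 6 with the largest log2 fold changes, at 2.44, 2.25 and 2.18. They had between 9.89 and 32.0 normalized counts in the N libraries and between 68.1 and 125 in 8h, without overlap. Without the replicate block TCONS_00024331 and TCONS_00024123 had FDRs of 0.061 and 0.16.

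Of the lncRNAs called lower, the short known lncRNA n417952 (276 bp) was the most abundant. It had 9816 and 10621 normalized counts in N, 10706 and 10414 in 0h and then 4125 and 5096 in 8h. The 0h level was that of N within the spread of the lines (log2 difference 0.05, FDR 0.88), whereas 8h was lower by -1.15 on the log2 scale (standard error 0.10, FDR 3.8e-06). Its mean fell from 4567 RPKM in N to 2167 RPKM in 8h, with reads over almost the whole length in both. TCONS_00112746 (2014 bp) had the same order, with 3242 and 2628 in N and 2977 and 2878 in 0h, against 1392 and 919 in 8h, a difference of -1.36 on the log2 scale (standard error 0.13, FDR 7.9e-06).

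Another 3 abundant known lncRNAs were already lower in 0h and were no nearer to N at 8h. n344450 (2219 bp) had 2405 and 2229 normalized counts in N, 1157 and 1288 in 0h and then 830 and 925 in 8h, with log2 fold changes against N of -0.93 at 0h (FDR 0.00012) and -1.40 at 8h (standard error 0.13, FDR 3.8e-06). n281264 (1023 bp) had 4757 and 5713 in N and 3232 and 3170 in 0h, against 2453 and 2147 in 8h, a log2 fold change of -1.19 at 8h (standard error 0.12, FDR 1.5e-05). In both, 8h was lower than 0h as well, by -0.48 (FDR 0.025 and 0.018). n415271 (4714 bp) had 2987 and 2943 in N, 1604 and 1348 in 0h and then 1476 and 1440 in 8h. It was lower than N by -1.01 at 0h and by -1.02 at 8h (standard error 0.12, FDR 5.6e-05), and 8h and 0h overlapped. Without N replicate 2 n281264 and n415271 were under 2-fold (-0.996 and -0.962), as was n415271 without 8h replicate 1 (-0.976). With total counts n415271 was at -0.948, and with a minimum of 50 counts in 2 of the 4 libraries at -0.973.

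The largest falls among lncRNAs with a mean of at least 50 normalized counts were in TCONS_00007054, n282067, n291804, n272557, TCONS_00099485 and TCONS_00013266, with log2 fold changes from -3.52 to -2.35. n291804 (1361 bp) had 261 and 405 normalized counts in N and 330 and 340 in 0h, against 54.5 and 40.4 in 8h (log2 fold change -2.79, standard error 0.24, FDR 3.8e-06). n272557 (1223 bp) had 318 and 179 in N, 232 and 244 in 0h and then 43.8 and 42.4 in 8h (-2.49, standard error 0.25, FDR 1.6e-05). In these 2 known lncRNAs 0h overlapped N, and 8h was far below both. Reads covered only 23.8% to 51.1% of n291804 in the N and 8h libraries, so they came from a part of it.

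TCONS_00007054 (2291 bp) had 63.0 and 137 normalized counts in N and 52.4 and 41.9 in 0h, against 8.76 and 7.89 in 8h, the last from 9 and 8 reads. The share of its length covered by reads went from a mean of 86.4% in N to 30.4% in 8h. n282067 (1124 bp) had 128 and 88.0 in N, 65.0 and 66.3 in 0h and then 18.5 and 11.8 in 8h. TCONS_00099485 (1045 bp) and TCONS_00013266 (2360 bp) had between 73.3 and 157 in N and between 14.8 and 27.6 in 8h, and without N replicate 2 the FDR of TCONS_00099485 was 0.051.

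Incomplete recovery, with 8h between N and 0h, was seen for TCONS_00038171, TCONS_00052922 and n275515, the most abundant called lncRNAs with this order. TCONS_00038171 (2799 bp) had 808 and 863 normalized counts in N and 2277 and 2423 in 0h, against 1612 and 1870 in 8h. It was above N by 1.49 on the log2 scale at 0h (FDR 2.7e-07) and by 1.06 at 8h (standard error 0.12, FDR 5.1e-05), and the step from 0h to 8h was -0.44 (FDR 0.029). For TCONS_00052922 (4096 bp), with 611 and 516 in N, 1791 and 1543 in 0h and then 1356 and 1337 in 8h, the step from 0h to 8h of -0.30 did not pass (FDR 0.17).

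n275515 (1755 bp) was the one of the 3 that was lost on withdrawal. It had 921 and 1066 normalized counts in N and 320 and 219 in 0h, against 436 and 529 in 8h, which is -1.88 at 0h and -1.04 at 8h against N (standard error 0.17, FDR 0.0015, or 0.075 without the block and 0.074 without N replicate 2). The difference at 8h was under 2-fold without 8h replicate 1 (-0.854) and without N replicate 2 (-0.874). It was also under 2-fold with total counts (-0.968) and with a minimum of 50 counts in 2 of the 4 libraries (-0.993).

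Excess, with 0h on the other side of N from 8h, was led by n417952, n288273 and n415277, but in none of these did 0h differ from N beyond the spread (FDR 0.88, 0.51 and 0.62). n288273 (2761 bp) had 1595 and 983 normalized counts in N, 1115 and 1051 in 0h and then 2891 and 2497 in 8h, a difference of 1.09 on the log2 scale (standard error 0.14, FDR 0.00012, or 0.065 without the block). Without N replicate 2 it was 0.83, under 2-fold. n415277 (2051 bp) had 1969 and 1678 in N and 2196 and 1873 in 0h, against 1088 and 749 in 8h, a difference of -1.01 on the log2 scale (standard error 0.13, FDR 0.00012, or 0.066 without the block). It was under 2-fold without N replicate 2 (-0.93), without 8h replicate 2 (-0.845), with total counts (-0.93) and in 6 other alternatives. The place of 0h on the other side of N held in both lines for n415277, unlike the other two. For n417952 it held in line 1 (0h minus N 0.13) and not in line 2 (-0.03), and for n288273 in line 1 (-0.52) and not in line 2 (0.10).

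**Figure D5:**
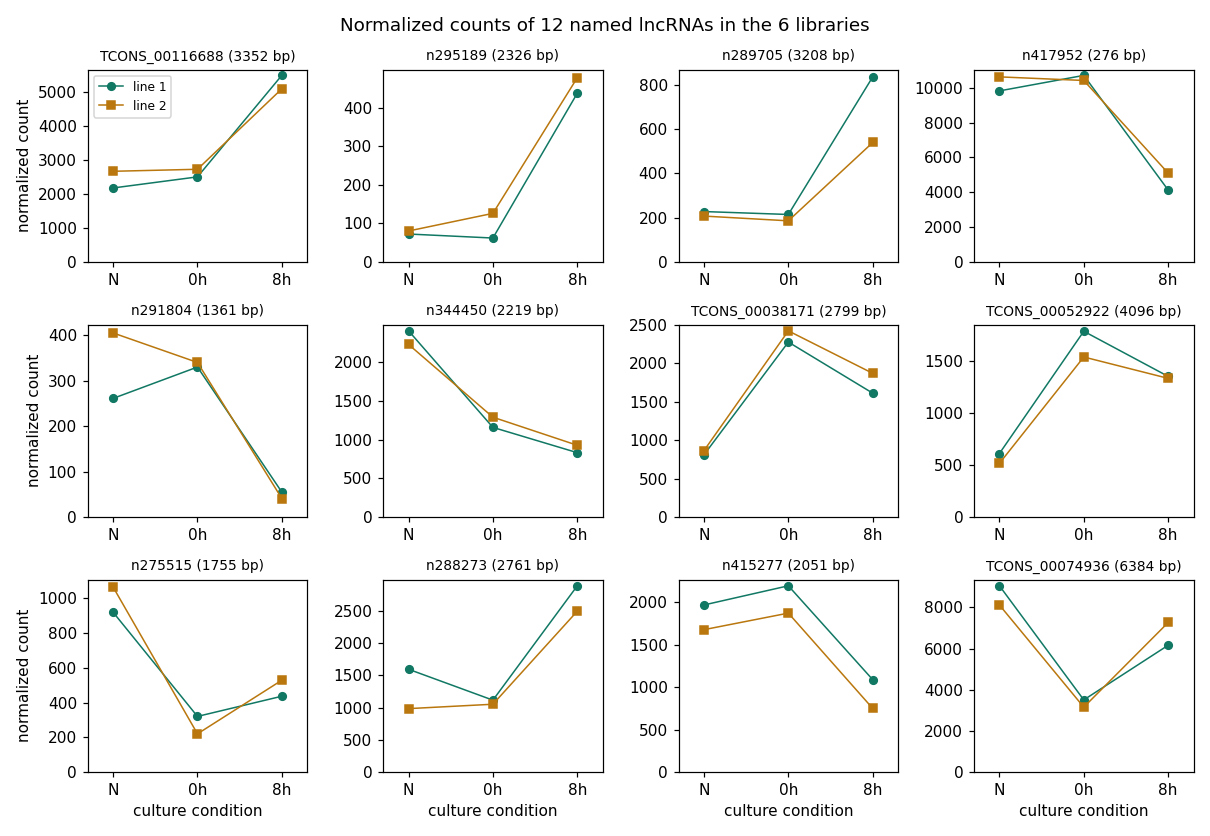
Normalized counts (vertical axes, starting at 0) of 12 lncRNAs in N, 0h and 8h for line 1 (circles) and line 2 (squares), 1 panel per lncRNA. The panels show lncRNAs that differed from N mainly at 8h (such as n417952 and n295189), some that were still part of the way between 0h and N (TCONS_00038171, TCONS_00052922, n275515), and TCONS_00074936, which fell at 0h and at 8h stood at 6160 and 7267 against 9055 and 8120 in N.

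For a few called lncRNAs one condition had no read. TCONS_00024370 (1028 bp) had 0 reads in both N libraries and 13 and 44 in 8h, and n290162 (2019 bp) and TCONS_00146897 (773 bp) had 0 in N and 18 and 15, and 13 and 18, in 8h. Against a limit of 3 counts per N library they were at least 9.25-fold, 5.33-fold and 5.02-fold higher in 8h. TCONS_00024832 (1368 bp), TCONS_00024814 (836 bp) and TCONS_00127906 (634 bp) had 15 and 31, 18 and 12, and 16 and 10 reads in N. None was read in either 8h library, and they were at least 7.85-fold, 5.18-fold and 4.49-fold lower there. All 6 had at least 1 read in a 0h library. They entered the test through the condition in which they were read, so their values are a description. Their FDRs in the main fit were between 0.0029 and 0.044. The fold limits allow only for counting error in the condition without reads. With 0 reads, a transcript was not detectable at this depth.

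The 10 most abundant lncRNAs of N stayed near their N level. n422895 (1612 bp) alone had 683933 and 645351 normalized counts in N and 669693 and 620743 in 8h, with a difference of -0.04 on the log2 scale (standard error 0.06, FDR 0.76). Over all 10, the log2 fold changes were between -0.34 and 0.08. Lower values at an FDR below 0.05 were measured for n422893 (2555 bp, -0.32, FDR 0.011) and n422894 (1085 bp, -0.34, FDR 0.014), differences under 2-fold that lost the threshold without the block (FDR 0.17 and 0.18) and without either N library. Without 8h replicate 1 n423941 and TCONS_00012497, and without 8h replicate 2 n294267 and n272837, passed an FDR of 0.05 as well, all under 2-fold. The predicted lncRNA TCONS_00012497 (5616 bp), which was raised at 0h by 0.48 (FDR 0.0027), had 43396 and 48508 in N and 44825 and 38570 in 8h, and its groups overlapped.

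lncRNA033862 is a transcript antisense to Gfra1, the gene of the GDNF co-receptor, and is taken to be TCONS_00074936, the only listed transcript of its length of 6384 bp. Its log2 fold change of 8h against N was -0.35 in the paired fit (standard error 0.11, FDR 0.079), and both 8h libraries, with 6160 and 7267 normalized counts, lay below both N libraries, with 9055 and 8120. When single libraries were left out its log2 fold change ranged from -0.55, without 8h replicate 2 (FDR 0.00051), to -0.16, without 8h replicate 1 (FDR 0.62). With no filter on counts and with a filter of 50 counts the FDR was 0.034 and 0.048, so whether this smaller than 2-fold difference passes depends on these choices. Since a strand-specific count is not stated, reads of this transcript and of the overlapping part of Gfra1 cannot be told apart. In line 1 the difference was -0.56 and in line 2 -0.16, on the scale of log2 normalized count + 0.5. n266295 (2106 bp), raised at 0h by 1.56 (FDR 0.00018), had 118 and 118 in N and 190 and 94.7 in 8h, a difference of 0.22 on the log2 scale (standard error 0.23, FDR 0.68) with opposite signs in the lines.

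Predicted lncRNAs with consecutive TCONS numbers were sometimes called together. Of the 566 called predicted lncRNAs, 25 had a neighbour in number that was called in the same direction, in 12 runs, 3 higher and 9 lower. Of tested predicted lncRNAs with a tested neighbour (n = 8171), 1.14% were called higher and 1.91% lower, whereas of the 184 with a neighbour called lower 10.3% were themselves called lower, and of the 107 with a neighbour called higher 5.61% were higher. TCONS_00007054, described above, stands beside TCONS_00007055 (731 bp, log2 fold change -4.21), and TCONS_00013266 beside TCONS_00013267 (1812 bp, -1.64), pairs chosen after their values were seen. Neighbouring numbers may be transcripts of 1 locus that share reads, so such pairs cannot be counted as independent.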

How the data were processed

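RNA of 2 SSC lines was depleted of ribosomal RNA, primed at random and sequenced on a HiSeq 2000, and the authors deposited, per lncRNA and library, raw read counts, length, coverage and RPKM (reads scaled to transcript length and library size). The deposited coverage score is the percent of a transcript's length with reads, and a few values pass 100. RPKM was used only to describe levels. The authors counted uniquely mapped reads on NONCODE lncRNAs and on transcripts assembled with Cufflinks and classed as non-coding by Coding Potential Calculator, so reads shared by near-identical copies are lost. The aligner and genome build are not given in the sources used here. A transcript missing from a library was given a count of 0. Counts were scaled by TMM and tested in edgeR 4.0.16 (R 4.3.3) with the quasi-likelihood test over all 6 libraries, with condition and replicate number as terms (2 residual degrees of freedom). P-values were adjusted by Benjamini-Hochberg over 35141 lncRNAs. For normalized counts, each count was divided by its library's TMM-scaled total and put back on the scale of the mean total. Differences per line used log2 of this value + 0.5.

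Replicate numbers were taken as lines because the study put each of its 2 lines through each condition. The difference between lines in N and that in 8h correlated across lncRNAs at 0.20, N and 0h at 0.17, and 0h and 8h at 0.19 (0.66, 0.64 and 0.69 at a mean of at least 1000 counts). Lists and rules were chosen with earlier results of these data known.

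Named were the called lncRNAs with the largest change at a mean of at least 50 (6 in each direction). Also named were those with the highest mean (5 in each direction) or, among known ones, the smallest P (3 in each direction). Added were the 3 most abundant called ones for each position of 0h relative to N and 8h. The 3 with most reads against 0 in each direction, the 10 most abundant in N and 2 of those named in the study followed. Alternatives were other scalings, filters, tests (DESeq2 1.42.0, edgeR's exact test) and samples. The scripts were tested on simulated data.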

Additional observations from a re-analysis of the deposited data

Results flagged for a closer look

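In each of the following, line 1 and line 2 differed from N in opposite directions, with 1 library per condition in each line, so the difference between the lines was not tested. The share of counts on predicted lncRNAs was higher in 8h by 1.02 percentage points in line 1 and differed by -0.0707 in line 2. The share on lncRNAs of at least 5000 bp differed by 0.199 and -0.013 percentage points. Among the most abundant lncRNAs, the log2 difference of 8h from N in line 1 and line 2 was -0.0916 and 0.152 for n422896, -0.114 and 0.271 for n272737, and 0.0468 and -0.331 for TCONS_00012497. For n266295 it was 0.688 and -0.312.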

How the results depend on the processing

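Main counts were 380 lncRNAs higher and 488 lower at an FDR below 0.05 and at least a 2-fold difference, and 1791 and 1738 at an unadjusted P. In the quasi-likelihood test without the replicate block the FDR counts were 23 and 59 over all 6 libraries and 1 and 9 over the 4 N and 8h libraries. The unadjusted counts stayed within 1.5 times there. DESeq2's Wald test with the replicate block gave 179 and 280 (unadjusted 1164 and 1125). A minimum of 50 counts in 2 of the 4 libraries gave 397 and 330, and 416 and 345 at an unadjusted P, with 11977 lncRNAs tested. Other scalings, no filter and the 4 libraries with the block stayed within 1.5 times. So did the exact test on these 4 libraries, which has no block (327 and 400). Leaving out 1 library gave 117 to 504 higher and 159 to 573 lower, and 1232 to 1944 and 1343 to 1820 at an unadjusted P. The cause was not tested. Of the 45 named lncRNAs 15 lost the FDR threshold without the block over all 6 libraries, 31 without it over the 4 N and 8h libraries, and 2 (n422893 and n422894) in DESeq2 and in the exact test. With 1 library left out, 7 of the named lncRNAs that were called fell under 2-fold, with values given above. Some called ones also lost the FDR threshold when a library was left out, those with no read in 1 condition among them.

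Among the named lncRNAs, signs reversed for 6, none of them called. n422895 was at 0.033 under scaling to total counts and at 0.00752 under the filter of 50 counts. Over the libraries left out, n294267 ranged from -0.286 to 0.0194, n422896 from -0.0724 to 0.142, n272737 from -0.0798 to 0.246, TCONS_00012497 from -0.288 to 0.0122 and n266295 from -0.184 to 0.565. Below 20 normalized counts 0.714% were called, and whether depth sets this share was not tested.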
